A study of Rattus norvegicus with 17 samples.

Results

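Of the 32494 genes listed, 10 are respiratory chain genes encoded by the mitochondrial genome itself, and all 10 were among the 22664 genes tested. They were chosen by name and Ensembl identifier and not by a filter on measured values, although earlier results of these data were known. The 10 are Mt-nd1 (ENSRNOG00000030644), Mt-nd2 (ENSRNOG00000031033), Mt-nd4 (ENSRNOG00000029707), Mt-nd5 (ENSRNOG00000029971), Mt-nd6 (ENSRNOG00000029042), Mt-cyb (ENSRNOG00000031766), Mt-co1 (ENSRNOG00000034234), Mt-co2 (ENSRNOG00000030371), Mt-co3 (ENSRNOG00000030700) and Mt-atp6 (ENSRNOG00000031979). The other genes of the mitochondrial genome were not analysed here. Gene expression had been measured by RNA-Seq in the hippocampus of 17 untreated rats at 3 laboratories, to ask how far the place where rats were kept changes the transcriptome. There were 5 rats at Site #1 (Legacy), 6 at Site #2 (Trinity) and 6 at Site #3 (UAB), with 1 library per rat.

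All groups were male SAS-Sprague Dawley rats with no transgene, lesion or drug. The rats of Sites #1 and #2 came from Charles River, arrived at 8.3 weeks of age and were killed 18 to 19 days later. Those of Site #3 came from Harlan (Envigo), arrived at 8.0 weeks of age and were killed after 27 days. Site #3 also differed from both other sites in chow, in housing rats as pairs and in the dissection fluid. Vendor, chow, housing, days to sacrifice, dissection fluid and laboratory therefore cannot be told apart in any contrast with Site #3. The whole hippocampus was taken at every site.

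The mitochondrial genome is a small circle of DNA, present in many copies per cell, that encodes a few core subunits of the respiratory chain. The remaining subunits are encoded in the nucleus and imported. Both strands of the circle are transcribed into long precursors that span many genes, and single messenger RNAs are then cut out of them and receive a poly(A) tail, with Mt-nd6 as the known exception to that tail in human cells. Neurons depend on this chain for most of their ATP, and mitochondrial transcripts are abundant in brain RNA libraries.

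Each value below is the deposited log2 level of a gene in a library, which the authors had normalized beforehand, so that a difference of 1 is a doubling. The values hold no read counts. The paper gives an approximate depth per sample, but the depth of each single library is unknown. Apart from a gap given at the end of this paragraph, levels of different genes were not ranked. A longer gene collects more reads, and gene lengths were not used here. The strand setting of the counting is not given in the sources used here, so Mt-nd6, which is read from the opposite strand to the other 9 members, could not be told apart from antisense RNA at its position. Reads shared with neighbouring genes or with nuclear copies of mitochondrial DNA could also be split or dropped, and the values of Mt-nd4 and Mt-nd6 are the ones given with most reserve. Their mean levels over the 17 libraries were 12.54 and 10.52, against 17.20 for Mt-nd5 to 19.98 for Mt-co1 among the 8 other members. The source of this gap was not tested.

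The labelled tissue was checked against 4 neuronal markers, among them Gad2 and Grin1, whose mean over the list lay between 13.95 and 14.17 in every library. The list of 5 astrocyte markers lay between 12.82 and 13.09. The choroid plexus pair F5 and Aqp1 had a mean of 9.89 in Site #3 replicate 1, against 5.32 to 5.91 at Sites #1 and #2. No members passed the test with or without that library. No pair of libraries held identical values, and the replicates of a site are different rats.

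Complex I, the NADH dehydrogenase that feeds electrons into the chain, is represented by 5 members. Mt-nd1, a core subunit of its membrane arm, was at 17.93, 18.24, 18.06, 18.28 and 18.10 in the libraries of Site #1. It ranged from 17.99 to 18.24 at Site #2, with a median of 18.07, and from 17.94 to 18.41 at Site #3, with a median of 18.29. The ranges overlapped at all 3 sites, although 4 libraries of Site #3 were above every library of Site #2. Mt-nd2, another membrane arm subunit, had site means of 18.33 ± 0.14 (SD, n = 5), 18.29 ± 0.11 (SD, n = 6) and 18.39 ± 0.13 (SD, n = 6). Mt-nd5, a subunit of the proton-pumping end of the arm, was at 17.12, 17.23, 16.95, 17.35 and 17.21 at Site #1. It ran from 17.03 to 17.25 at Site #2 and from 17.07 to 17.43 at Site #3, with medians of 17.20 and 17.29. Here too the 3 ranges overlapped.

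The last 2 members of complex I had far lower values than the others and varied differently from them. Mt-nd4, also a proton-pumping subunit, was at 12.44, 12.62, 12.58, 12.58 and 12.70 at Site #1 and ran from 12.38 to 12.63 at Site #2, with a median of 12.50. At Site #3 it reached from 12.21 to 12.94 with a median of 12.58 and an SD of 0.26, so that the libraries of Site #3 enclosed all those of the other sites. Mt-nd6, the membrane arm subunit read from the opposite strand, was at 10.56, 10.44, 10.28, 10.26 and 10.40 at Site #1. Its 6 libraries at Site #2 ran from 10.43 to 10.84 with a median of 10.63, and those at Site #3 from 10.45 to 10.66 with a median of 10.50. Site #1 held the lowest libraries of Mt-nd6 and Site #2 the highest ones, with overlap between all sites.

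Complex III, which passes electrons to cytochrome c, has Mt-cyb as its only mitochondrially encoded subunit. Mt-cyb was at 18.27, 18.52, 18.37, 18.66 and 18.55 at Site #1, with site means of 18.48 ± 0.15 (SD, n = 5), 18.48 ± 0.10 (SD, n = 6) and 18.51 ± 0.15 (SD, n = 6). The site means of Mt-cyb differed by less than the SD within any site.

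Complex IV, cytochrome c oxidase, reduces oxygen to water and takes its catalytic core from Mt-co1, Mt-co2 and Mt-co3. Mt-co1, which carries the site where oxygen is reduced, was at 19.79, 20.03, 19.92, 20.09 and 19.95 at Site #1. It ran from 19.84 to 20.12 at Site #2, with a median of 19.92, and from 19.80 to 20.22 at Site #3, with a median of 20.04. These ranges lay almost on top of each other. Mt-co2, which accepts electrons from cytochrome c, had site means of 18.28 ± 0.12 (SD, n = 5), 18.33 ± 0.12 (SD, n = 6) and 18.37 ± 0.14 (SD, n = 6). Mt-co3, the third core subunit, had means of 18.56 ± 0.15 (SD, n = 5), 18.55 ± 0.10 (SD, n = 6) and 18.59 ± 0.13 (SD, n = 6).

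Complex V, the ATP synthase, is represented by Mt-atp6, part of the channel through which protons flow back. Mt-atp6 was at 18.63, 18.91, 18.69, 18.97 and 18.75 at Site #1, with site means of 18.79 ± 0.14 (SD, n = 5), 18.83 ± 0.09 (SD, n = 6) and 18.86 ± 0.15 (SD, n = 6). As for the other members, the sites overlapped.

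**Figure D1:**
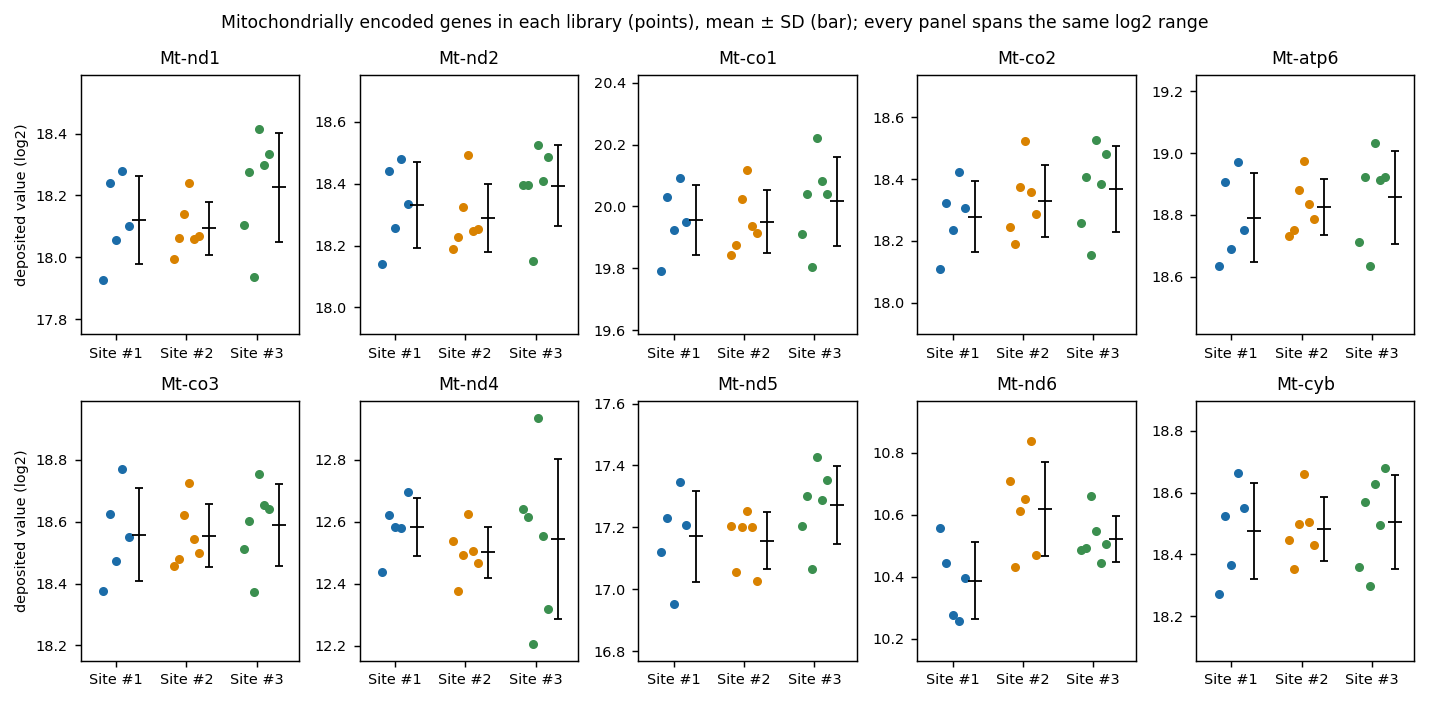
Deposited log2 value of each of the 10 genes (vertical axes, all of equal span) in every library (points) of Site #1 (n = 5), Site #2 (n = 6) and Site #3 (n = 6), with the mean ± SD as a bar. The sites overlap for all 10 genes, Mt-nd4 is widest at Site #3, from 12.21 to 12.94, and Mt-nd6 is lowest at Site #1.

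Site #1 was compared with Site #2, which shared its vendor. No members passed an adjusted p of 0.05 in limma, where 0.00% of all 22664 genes did. The paper, with DESeq2 at the same threshold, reported differentially expressed genes for this pair. It reported more genes for every pair of sites than limma called here. The shares of all genes given here are therefore those of limma on the deposited values. At an unadjusted p under 0.05 there was 1 member, Mt-nd6, against 6.74% of all genes. Mt-nd6 was higher at Site #2 by 0.23 (SE 0.08), a fold of 1.17 with an unadjusted 95% interval of 1.04 to 1.32, and its adjusted p in limma was 0.660. The other 9 members had differences from -0.08 for Mt-nd4 to 0.05 for Mt-co2. The median over the 10 members was -0.0049, and that over all genes tested was -0.00010. It had no stable sign, at -0.05 without Site #1 replicate 1 and 0.04 without Site #1 replicate 4. The first omission also gave 2 members with an unadjusted p under 0.05 in place of 1.

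Between Site #1 and Site #3, which differed in vendor, again 0 members were called by limma, against 0.101% of all genes. Mt-nd6 was the 1 member with an unadjusted p under 0.05, a share to be read beside 8.17% of all genes. It was higher at Site #3 by 0.14 (SE 0.06) with an adjusted p of 0.558 in limma. Of the other members, Mt-nd1 differed by 0.11 (SE 0.09), Mt-nd5 by 0.10 (SE 0.08) and Mt-co2 by 0.09 (SE 0.07), and only Mt-nd4 was lower, by -0.04 (SE 0.11). The median over the members was 0.06, with 9 values above 0 and 1 below, and the median over all genes was 0.00020. The member median rested on single libraries, at 0.02 without Site #1 replicate 1, 0.03 without Site #3 replicate 4, 0.10 without Site #1 replicate 4 and 0.11 without Site #3 replicate 3. The unadjusted p of Mt-nd6 was no longer under 0.05 without Site #1 replicate 3, 4 or 5 or without Site #3 replicate 3 or 4. The same happened with median centring, with all 17 libraries in 1 fit and with the replicate number as a block. It stayed under 0.05 in 12 of 20 alternatives.

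Between Site #2 and Site #3, the pair with the most calls, limma called 1.05% of all genes and 0 members. No members had an unadjusted p under 0.05 either, a threshold that 14.8% of all genes passed. The difference was 0.12 (SE 0.06) for Mt-nd5, with an adjusted p of 0.400 in limma, and 0.13 (SE 0.07) for Mt-nd1, with an adjusted p of 0.442. Mt-nd6 was the 1 member with a lower mean at Site #3, at -0.10 (SE 0.06). The median over the members was 0.04, and over all genes 0.00015. The member median was 0.0041 without Site #3 replicate 4, 0.02 without Site #2 replicate 2, 0.07 without Site #2 replicate 4 and 0.09 without Site #3 replicate 3. The number of members with an unadjusted p under 0.05 was 3 in place of 0 without Site #3 replicate 3, with a smallest adjusted p of 0.151 in limma. It was also 3 when libraries were scaled on all other genes, 2 without Site #2 replicate 4, and 1 without Site #2 replicate 2 or with array weights.

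Site #3 was also set against both other sites averaged, in a fit on all 17 libraries, which gave 0 members called by limma, against 0.768% of all genes. There were 0 members and 12.0% of all genes with an unadjusted p under 0.05, and 3 members without Site #3 replicate 3, 1 without Site #1 replicate 4, and 2 with scaling on all other genes or with the replicate number as a block. All 10 members had a higher mean at Site #3, from 0.0026 for Mt-nd4 to 0.12 for Mt-nd1, with a median of 0.06 beside 5.0e-06 over all genes. That median was 0.02 without Site #3 replicate 4 and 0.10 without Site #3 replicate 3. The members move together between libraries, as described next, so these 10 signs are not 10 independent observations. No members separated the sites without overlap in any of the 4 comparisons, which 0.878%, 1.38%, 1.95% and 0.344% of all genes did in the order given. The 3 pairwise comparisons share libraries with each other and with this contrast.

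**Figure D2:**
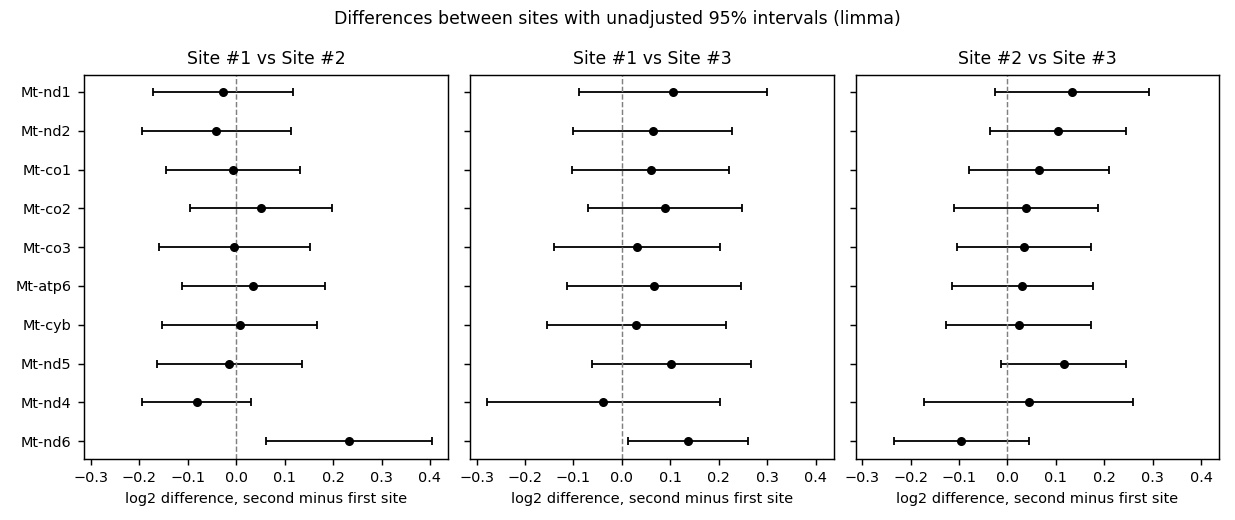
Difference in log2 level of each gene (horizontal axes, second minus first site; points) with unadjusted 95% intervals from limma (bars) for the 3 pairs of sites. The intervals of Mt-nd6 lie above 0 for Site #1 vs Site #2 and Site #1 vs Site #3, and all other intervals include 0.

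Over the 3 pairs of sites the unadjusted 95% intervals of the 10 members reached from a fold of 0.824, for Mt-nd4 between Site #1 and Site #3, to 1.32, for Mt-nd6 between Site #1 and Site #2. Those of Mt-co1 between Site #1 and Site #2 reached from 0.905 to 1.10, so the width differed between members. The SD within sites was 0.12 to 0.17 over the members, with a median of 0.13. The median was 0.09 for the 13679 genes that averaged 1 approximate CPM or more, and the 5 other genes with a mean level of 17 or more had a median of 0.15.

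Much of the variation among rats was shared by 8 of the 10 members. For each library a common shift was computed as the mean, over the 10 members, of the difference between the level and that gene's mean over 17 libraries. It was -0.16, 0.04, -0.11, 0.09 and -0.0087 in the libraries of Site #1. It ran from -0.11 to 0.13 at Site #2, with a median of -0.02, and from -0.17 to 0.21 at Site #3, with a median of 0.06. The SD within sites was 0.11, while the site means were -0.03, -0.01 and 0.04, so that rats of 1 site differed by more than the site means did.

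Single libraries show the pattern. In Site #3 replicate 4, the highest library, all 10 members were above their own means, by 0.03 for Mt-nd6 to 0.40 for Mt-nd4. All 10 were also above their means in Site #2 replicate 4. In Site #3 replicate 3, the lowest library, 9 members were below their means, by -0.14 for Mt-nd5 to -0.34 for Mt-nd4, and Mt-nd6 was above its mean by 0.14. Site #1 replicate 1 had the same split, with 9 members below and Mt-nd6 above. Other low libraries differed. All 10 members, Mt-nd6 included, were below their means in Site #2 replicates 2 and 6. In Site #1 replicate 3 Mt-nd6 was also below, by -0.24, and only Mt-nd4 was above.

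As a share of the summed level of all genes, after raising 2 to the deposited value, the 10 members took 7.13% to 9.38% of a library. For Site #1 the share was 8.13% ± 0.73 (SD, n = 5). Site #2 had 8.11% ± 0.46 (SD, n = 6), and 8.53% ± 0.75 (SD, n = 6) was measured for Site #3. The lowest and the highest share belonged to Site #1 replicate 1 and Site #3 replicate 4. Fewer mitochondria-rich cells and less mitochondrial RNA per cell cannot be told apart in RNA of whole tissue.

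**Figure D3:**
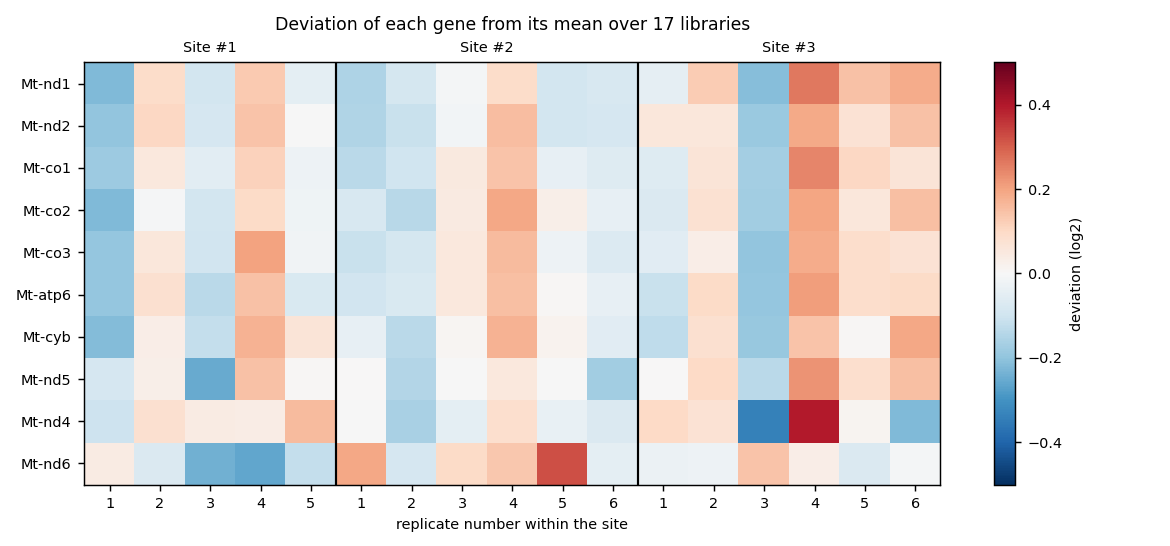
Deviation of each gene (rows) from its own mean over the 17 libraries (columns, by site and replicate number), in log2 units by colour. Whole columns share a colour for the upper 8 genes, as in Site #3 replicates 3 and 4, while the rows of Mt-nd4 and Mt-nd6 often differ from the rest of their column.

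Over all 45 pairs of members Pearson's r across the 17 libraries ran from -0.292 to 0.965 with a median of 0.804, beside a median of -0.006 over all gene pairs (genes that averaged 1 approximate CPM or more). Mt-nd4 and Mt-nd6 are described apart from the others because their correlations, once seen, were lower. Among the 8 members other than Mt-nd4 and Mt-nd6, r was 0.767 to 0.965 in the 28 pairs, with a median of 0.902. The highest pair was Mt-co1 with Mt-co3. With the site means removed the median was 0.923, so the relation held within sites. These values are descriptions, since all points share their library and its normalization.

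Mt-nd4 followed the 8 others less closely, with r of 0.439 to 0.631. Whether this belongs to the gene or to how its reads were counted was not tested. In Site #3 replicate 6 it was below its mean by -0.22 while Mt-nd1 was above its mean by 0.19. The SD of Mt-nd4 around the common shift was 0.13, against 0.03 to 0.06 for the 8 others. Mt-nd4 deviated in the same direction as the mean of the other 9 members in 11 of 17 libraries, and Mt-atp6 did so in 17 of 17.

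Mt-nd6 showed no detectable relation with any other member. Over the 9 relations Pearson's r was -0.292 to 0.072 and Spearman's rho was -0.275 to 0.020. The smallest permutation p of the 9 relations was 0.257, and the adjusted p was 0.831 to 0.940. After the 2 libraries farthest from the median of Mt-nd6 were left out, Site #1 replicate 4 and Site #2 replicate 5, r was -0.194 to 0.288 and again none of the 9 passed. In the first of these libraries Mt-nd6 was below its mean by -0.26 with the 9 other members above theirs, and in the second it was above its mean by 0.32 with Mt-nd1 at -0.09 and Mt-co2 at 0.03. Mt-nd6 deviated in the same direction as the mean of the others in 7 of 17 libraries.

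**Figure D4:**
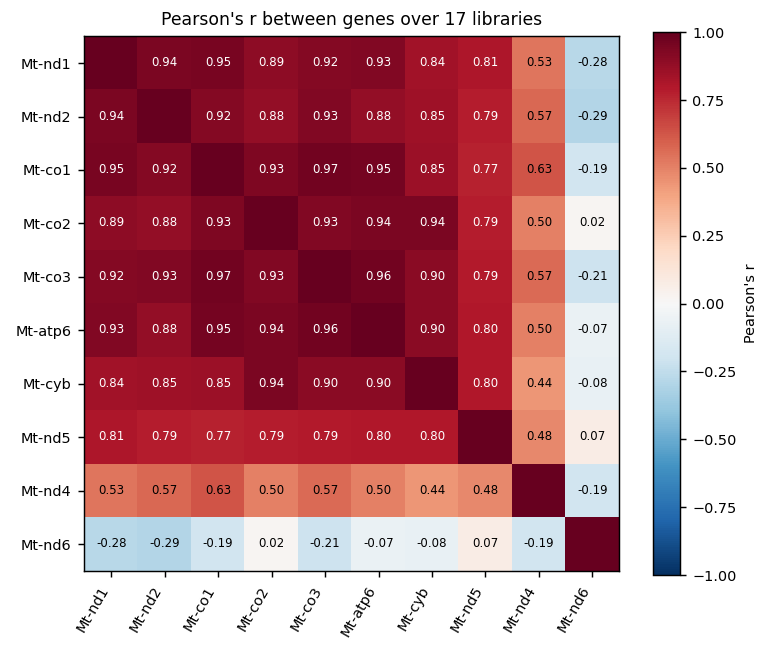
Pearson's r between each pair of the 10 genes over 17 libraries, by colour and number. The 8 genes at the upper left have r of 0.767 to 0.965 with each other, Mt-nd4 has 0.439 to 0.631 with them, and Mt-nd6 has values near 0.

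The cell type lists were at most weakly correlated with the common shift. Pearson's r over the 17 libraries between a list's mean and the common shift was -0.30 for the 4 neuronal genes, 0.17 for the 5 astrocyte genes, 0.22 for the 6 microglial genes and -0.28 for Cers2, the 1 oligodendrocyte gene. It was -0.08 for the choroid plexus pair. That value depends mostly on Site #3 replicate 1, where the mean of the pair was 9.89, so it says little about the other libraries. The part of cell composition in the shift was not tested.

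The genes most like the members by their r with the common shift, among 13669 other genes that averaged 1 approximate CPM or more, were ENSRNOG00000015205 at 0.836 and ENSRNOG00000033299 at 0.823. Symbols were at hand for 952 of them, from the study's supplementary tables, which include its lists of genes called between sites. Among these 952 the highest were Nedd9, a scaffold protein of cell adhesion, at 0.754, and Vcam1, an adhesion molecule of vessels, at 0.712. Next came Hhex, a homeobox transcription factor, at 0.691, and Mphosph6, a cofactor of the RNA exosome, at 0.683. The lowest were Fam83d at -0.708, Ttyh2, a chloride channel family member, at -0.698, Ddr1, a collagen receptor, at -0.676, and Slc4a3, an anion exchanger, at -0.656. By identifier the lowest were ENSRNOG00000004392 at -0.806 and ENSRNOG00000037518 at -0.786. An r of 0.7 or more was reached by 0.249% of the genes, and -0.7 or less by 0.110%. Over all pairs of genes that averaged 1 approximate CPM or more, 1.54% had an r of 0.7 or more. The genes named here are the extremes of many correlations over 17 libraries, and none of these relations was tested.

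Ratios between members within a library do not change when all genes of the library are scaled by 1 factor, so they were compared between sites. Processing that acts on each gene separately can still change them. Of the 135 comparisons, 24 had an exact permutation p under 0.05 and 0 passed after adjustment. Each ratio reuses members that enter other ratios, and the pairs of sites share libraries. The 24 are therefore not separate observations, and whether they exceed the number due to chance was not tested. The smallest p belonged to Mt-nd1 minus Mt-atp6. It was -0.73 ± 0.03 (SD, n = 6) at Site #2, with libraries from -0.78 to -0.69, and -0.63 ± 0.04 (SD, n = 6) at Site #3, with libraries from -0.70 to -0.59. The ranges overlapped slightly, and the difference of 0.10 had an exact two-sided permutation p of 0.00433 and an adjusted p of 0.237. At Site #1 the same ratio was -0.67 ± 0.03 (SD, n = 5), higher than at Site #2 by 0.06.

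The ratios of Mt-nd6 followed its level. Mt-nd5 minus Mt-nd6 was 6.56 to 7.09 at Site #1, 6.36 to 6.62 at Site #2 and 6.41 to 6.88 at Site #3. The difference between Sites #1 and #2 was -0.25, with an exact two-sided permutation p of 0.0130 and an adjusted p of 0.237. Both ratios were lowest at Site #2 on average, and neither difference held after adjustment.

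Of the nuclear genes that serve the mitochondrion, 20 could be matched to an identifier in the study's supplementary tables, and all 20 were tested. The 20 include respiratory chain subunits, factors of mitochondrial transcription and RNA, the mitochondrial ribosome and membrane carriers. Those tables include the study's lists of differentially methylated and differentially expressed genes from these same rats. The 20 may therefore hold more genes already called in these data than a random draw would. No conclusion is drawn from setting their counts beside all genes. Limma called 0 of 20 for Site #1 vs Site #2, 0 of 20 for Site #1 vs Site #3, 1 of 20 for Site #2 vs Site #3 and 0 of 20 for the contrast of Site #3. Over all genes 0.00%, 0.101%, 1.05% and 0.768% were called. At an unadjusted p under 0.05 there were 1, 2, 2 and 3 of the 20, beside 6.74%, 8.17%, 14.8% and 12.0% of all genes. The medians were -0.0022, -0.05, -0.04 and -0.04, with 10, 3, 6 and 3 of the 20 above 0. The medians of the mitochondrially encoded members were -0.0049, 0.06, 0.04 and 0.06. Across libraries, Pearson's r between the mean of the 20 and the common shift was 0.18, and 0.41 with site means removed. By list, r was 0.45 for the 2 respiratory chain genes and 0.32 for the 3 of transcription and RNA. For the 10 of translation it was 0.09, and for the 5 of the membrane and carriers -0.28. These relations were not tested.

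The 1 nuclear gene called was Lrpprc, which stabilizes mitochondrial messenger RNAs. It was at 12.45, 12.43, 12.37, 12.33 and 12.35 at Site #1 and from 12.38 to 12.52 at Site #2, with a median of 12.44. At Site #3 all 6 libraries lay between 12.31 and 12.33, below every library of Site #2. Lrpprc fell by 0.12 (SE 0.03) from Site #2 to Site #3, with an adjusted p of 0.0437 in limma. The call was lost in 15 of 21 alternatives, with adjusted p of 0.0231 to 0.110, among them the omission of any 1 library other than Site #2 replicate 1.

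Other nuclear genes did not pass. Mrps27, a protein of the small mitochondrial ribosomal subunit, differed by -0.11 (SE 0.03) between Site #1 and Site #3 with an adjusted p of 0.278 in limma. Mrps30, a further mitochondrial ribosomal protein, differed by -0.13 (SE 0.05) between Site #2 and Site #3 with an adjusted p of 0.195. Top1mt, the mitochondrial topoisomerase that relaxes the circular genome, differed by -0.09 (SE 0.04) between Site #1 and Site #2 with an adjusted p of 0.703. Tefm, the mitochondrial transcription elongation factor, had site means of 8.11 ± 0.06 (SD, n = 5), 8.09 ± 0.05 (SD, n = 6) and 8.08 ± 0.09 (SD, n = 6).

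**Figure D5:**
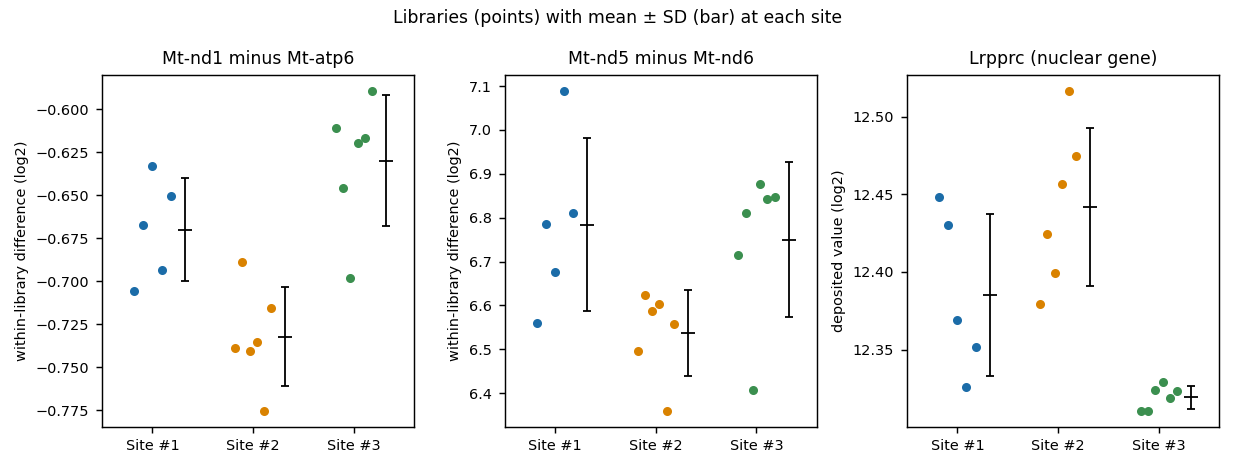
Difference in log2 level within each library between Mt-nd1 and Mt-atp6 (left) and between Mt-nd5 and Mt-nd6 (middle), and the log2 level of Lrpprc (right), for every library (points) with the mean ± SD as a bar at each site. Site #2 is lowest on average in both ratios, and the 6 libraries of Site #3 lie between 12.31 and 12.33 for Lrpprc.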

How the data were processed

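The authors used Trimmomatic for trimming, HISAT2 for alignment to rn6 and featureCounts for counts per gene, and their processing notes also name hg19 and DESeq2. Versions are not given in the sources used here. The labels name a TruSeq mRNA kit and the paper's methods an NEBNext Ultra II kit. The deposited values are log2 levels normalized between libraries, with the pattern of a regularized log, which shrinks differences of low genes. The step itself is not given in the sources used here. Because these values are not counts, the depth of each single library is unknown. The noise of counting could not be separated from the spread between rats.

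Samples were grouped by the site in the labels. Genes at exactly 0 in all 17 libraries (9830) were left out. The planned test for log2 values was limma, which was applied to them unchanged and without a pseudocount. Its lmFit and eBayes functions (mean-variance trend on, two-sided) were run for each pair of sites alone and for Site #3 on all 17 libraries, with Benjamini-Hochberg adjustment over the 22664 genes and a threshold of 0.05. Relations of Mt-nd6 used 100000 permutations. Ratios between members were tested by exact permutation, adjusted over 135, and were chosen after the data were seen. Approximate CPM values are 2 to the power of the deposited value, scaled to an equal sum per library.

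The members, the lists and the tests were chosen with earlier results of these data known. All 10 members were named, and of the nuclear genes the 4 with the smallest p together with Tefm, Top1mt and Lrpprc. Symbols of nuclear genes came from the study's supplementary tables, which include its lists of genes called between sites. Sequences, coordinates and gene lengths of the members were not used here. Alternatives were other scalings, a filter at 1 CPM, other estimates of the spread, the replicate number as a block and leaving out each library. The scripts were tested on simulated data. Software was Python 3.11.15 (scipy 1.17.1, pandas 2.3.3, numpy 2.4.6, matplotlib 3.10.9) and R 4.3.3 (limma 3.58.1).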

Additional observations from a re-analysis of the deposited data

Results flagged for a closer look

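In Site #3 replicate 3 the level of Mt-nd2 was 18.15, apart from the 5 other libraries of the site at 18.39 to 18.53. The gap was 0.649 of the range of the site, above Dixon's critical value of 0.625 for 6 samples. In Site #2 replicate 4 the level of Tefm was 8.18, against 8.04 to 8.08 in the others, with a gap of 0.676 of the range. These were 2 of 51 groups examined (10 members, the common shift, the share of the summed level and 5 nuclear genes at each of 3 sites), and chance flags about 1 in 20.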

How the results depend on the processing

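The number of members called by limma was 0 in all 4 comparisons under every alternative run, and the smallest adjusted p of any member in any of them was 0.151. The 9 relations of Mt-nd6 also gave 0 calls in every alternative, and the ratios between members gave 0 without any 1 library, with smallest adjusted p of 0.0974 to 0.390. Signs of weak correlations turned. With site means removed, r of Mt-nd6 with Mt-co2 was -0.135, and scaled on all other genes it was -0.0023. Without the 2 farthest libraries, r of Mt-nd6 was 0.076 with Mt-atp6, 0.0016 with Mt-co3 and 0.080 with Mt-cyb. The SD of the common shift was 0.104, and 0.109 with median centring and 0.108 scaled on all other genes.

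The count of nuclear genes called for Site #2 vs Site #3 was 0 in place of 1 with median centring, quantile normalization and scaling on all other genes, and 0 to 1 when each library was left out. For the contrast of Site #3 it was 1 in place of 0 with no mean-variance trend and with array weights. The cause was not tested. Calls over all genes were 23 for Site #1 vs Site #3 (0 to 36 over the alternatives), 239 for Site #2 vs Site #3 (43 to 482) and 174 for the contrast of Site #3 (62 to 339). Quantile normalization gives the genes of the highest ranks the same value in each library, so it says little about these members.

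The labels repeat replicate numbers between sites, but these are different rats, and the deviations of libraries with the same number correlated at -0.459 to 0.390. With the replicate number as a block, 0 members were called in each comparison, 0 nuclear genes were called for Site #2 vs Site #3, and 43 genes in all were.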

Other observations

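The spread between rats differed among genes at Site #3, as values outside the comparisons. Mt-nd4 had an SD of 0.26 (n = 6) there, against 0.09 (n = 5) at Site #1 and 0.08 (n = 6) at Site #2. Lrpprc had an SD of 0.0074 (n = 6) at Site #3, against 0.05 at each of the other sites. Mt-nd6 had an SD of 0.07 at Site #3 and 0.15 at Site #2. These spreads were noticed after the data were seen and were not tested.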
